A study of Mus musculus with 2 samples.

Results

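The small leucine-rich proteoglycans (SLRPs) of the omentum were examined through 10 genes chosen by symbol, Dcn, Lum, Bgn, Fmod, Ogn, Prelp, Aspn, Podn, Omd and Kera, out of the 24346 gene symbols listed. RNA was sequenced from whole omentum, an abdominal fat sheet that carries lymphoid clusters called milky spots, with a single library for each of the 2 genotypes, WT and Postn-DTR. Both groups had received diphtheria toxin (DT), and both were sampled 5 days later. Postn-DTR mice are heterozygous for a diphtheria toxin receptor placed in the first coding exon of Postn, so cells that use the Postn promoter are killed by DT, and the same animals have a single intact Postn copy. The promoter was used in the study to remove Aldh1a2+ fibroblastic reticular cells (FRCs), a stromal population called P1, but it is also active in other stromal cells such as myofibroblasts. The study reported that DT also reduced another FRC population, P2, in part, and it could not exclude systemic effects. The age and sex of the mice, and whether each library was a single animal or a pool, were not given in the sources used here.

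SLRPs are secreted proteins with a small core of leucine-rich repeats, and most of them carry glycosaminoglycan (GAG) chains. They sit on collagen fibrils, where they set fibril thickness and spacing, and some also bind growth factors such as TGF-beta or engage Toll-like receptors. In adipose and lymphoid tissue fibroblasts are their main known source. The family is divided into classes by sequence. Dcn, Bgn and Aspn belong to class I, Lum, Fmod, Prelp, Omd and Kera to class II, Ogn to class III and Podn to class V.

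Because each genotype was represented by 1 library, the genotypes were compared without a test, and how far replicates would differ is unknown. Levels are in FPKM (fragments per kilobase of transcript, scaled to a fragment number for the library), a unit corrected for length, so that genes can be compared with each other. A change is log2(FPKM + 1) in Postn-DTR less that in WT, a scale on which low genes move less than their true ratio, whereas a fold is the ratio of FPKM without the added 1. Comparison was limited to genes that averaged an FPKM of 1 or more, and a gene was called lower or higher where its change, with the added 1, came to 2-fold or more. Of 13127 genes compared, 410 (3.12%) were at least 2-fold lower in Postn-DTR and 509 (3.88%) at least 2-fold higher, with a median change of 0.02. Total FPKM was 542190 in WT and 671882 in Postn-DTR. Scaling to equal totals moved the median of all genes by -0.27, and the share of higher genes among those changed went from 55.4% to 29.6%. With pancreatic acinar genes also removed the values were -0.29 and 28.2%, so most of the shift came from the totals. Depth, meaning here the fragment number used in scaling, was estimated from the steps between low values. It was about 23.4 M fragments in WT and 24.2 M in Postn-DTR. Whether this is the number of mapped fragments or an adjusted one is not known.

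The 3 members that were at least 2-fold lower, Fmod, Ogn and Aspn, are shown first by the DNA around their transcription start, together with Omd, which lies between Aspn and Ogn but was not lower, and Bgn, an abundant member that changed little. Each sequence runs from 250 bases before to 50 bases after the start annotated in RefSeq (GRCm38.p6) and is written on the strand of the gene. Capitals mark matches on either strand to the TATA box (TATAAA), the CCAAT box (CCAAT), the GC box (GGGCGG), the retinoid receptor half-site (AGGTCA), a SMAD element (CAGACA) or an AP-1 site (TGANTCA).
Aspn, chr13:49544193-49544492, plus strand: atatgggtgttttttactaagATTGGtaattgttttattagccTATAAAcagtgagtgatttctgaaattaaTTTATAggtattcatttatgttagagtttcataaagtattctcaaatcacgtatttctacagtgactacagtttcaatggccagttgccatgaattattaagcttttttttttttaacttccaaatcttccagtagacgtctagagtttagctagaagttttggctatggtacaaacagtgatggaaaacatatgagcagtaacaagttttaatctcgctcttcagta
Omd, chr13:49582212-49582511, plus strand: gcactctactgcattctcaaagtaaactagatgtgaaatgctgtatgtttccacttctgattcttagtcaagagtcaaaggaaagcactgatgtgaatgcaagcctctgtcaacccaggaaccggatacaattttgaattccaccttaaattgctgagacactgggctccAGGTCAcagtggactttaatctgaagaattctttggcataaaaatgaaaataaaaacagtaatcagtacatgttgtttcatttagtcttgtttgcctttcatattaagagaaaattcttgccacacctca
Ogn, chr13:49607765-49608064, plus strand: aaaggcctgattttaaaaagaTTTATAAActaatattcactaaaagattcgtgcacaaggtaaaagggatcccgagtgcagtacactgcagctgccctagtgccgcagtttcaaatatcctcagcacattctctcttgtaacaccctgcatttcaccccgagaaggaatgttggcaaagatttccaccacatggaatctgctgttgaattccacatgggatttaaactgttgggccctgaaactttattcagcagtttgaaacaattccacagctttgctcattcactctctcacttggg
Fmod, chr1:134037004-134037303, plus strand: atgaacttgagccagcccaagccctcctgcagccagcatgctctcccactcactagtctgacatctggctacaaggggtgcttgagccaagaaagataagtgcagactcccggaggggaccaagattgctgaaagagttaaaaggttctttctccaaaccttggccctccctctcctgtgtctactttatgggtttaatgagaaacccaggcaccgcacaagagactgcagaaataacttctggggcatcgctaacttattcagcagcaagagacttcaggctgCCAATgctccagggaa
Bgn, chrX:73483351-73483650, plus strand: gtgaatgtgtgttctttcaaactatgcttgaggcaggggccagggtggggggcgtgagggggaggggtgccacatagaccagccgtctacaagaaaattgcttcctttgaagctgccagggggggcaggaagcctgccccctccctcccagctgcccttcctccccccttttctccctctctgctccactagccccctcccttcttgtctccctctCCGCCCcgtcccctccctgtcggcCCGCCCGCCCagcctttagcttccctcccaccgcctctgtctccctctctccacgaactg

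The windows differed in base composition. G and C made up 31.0% of the Aspn window, and 1.28% of all 32851 promoter windows in the same table were poorer in G and C. The share was 37.7% for Omd, 42.3% for Ogn, 51.0% for Fmod and 63.7% for Bgn, against a median of 52.7% over all windows. TATAAA was found in the Aspn and Ogn windows and in 13.6% of all windows, and in both genes it lay far upstream, beginning at positions -207 and -178 in Aspn and at -229 and -227 in Ogn, where the matches on the 2 strands overlap, with the start as 0. The Bgn window held 3 GC-box matches, at -34, -10 and -6, of which the last pair overlap. GC boxes were present in 35.7% of all windows. AGGTCA was found in the Omd window at -80 and in 16.3% of all windows. CCAAT was found in the Aspn window on the minus strand, at -229, in the Fmod window after the start, at 34, and in 37.4% of all windows. CAGACA, in 21% of all windows, and TGANTCA, in 7.81%, were in none of these 5. No motif of the 6 was shared by Aspn, Ogn and Fmod. A match describes letters in a window and is not evidence of a bound factor.

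The family was dominated by decorin and biglycan in both libraries. Dcn (ENSMUSG00000019929, chromosome 10, 97479609 to 97518143 on the plus strand, GRCm38), which encodes a chondroitin or dermatan sulfate proteoglycan that coats collagen fibrils, reached 1875 FPKM in WT against 2152 in Postn-DTR. This made it the transcript of rank 23 among all genes in WT and of rank 31 in Postn-DTR. Dcn alone made up 70.5% of the summed FPKM of the 10 genes in WT and 74.0% in Postn-DTR. Its close relative Bgn (ENSMUSG00000031375, chromosome X, 73483602 to 73495933, plus strand), which also binds Toll-like receptors when released from the matrix, was at 466 FPKM in WT against 522 in Postn-DTR. The levels of both genes were slightly higher in Postn-DTR as deposited, by 1.15-fold for Dcn and 1.12-fold for Bgn, but the changes of 0.20 and 0.16 became -0.14 and -0.17 at equal totals without acinar genes and -0.11 and -0.15 at equal totals with all genes kept, so neither has a stable direction. The ratio of Dcn to Bgn does not depend on scaling, and it was 4.02 in WT and 4.12 in Postn-DTR.

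**Figure D1:**
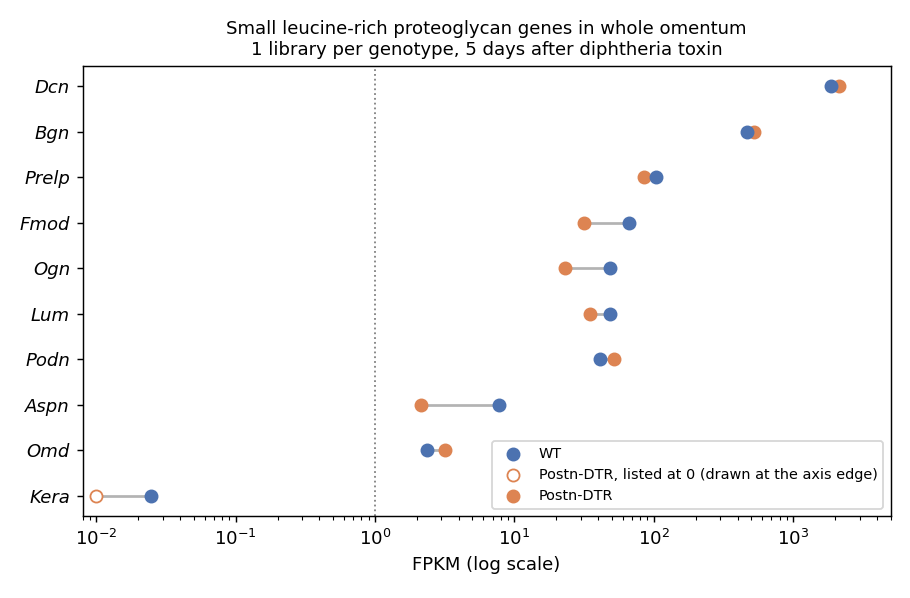
FPKM of the 10 SLRP genes on a log axis, with 1 point per library (WT blue, Postn-DTR orange) and a dotted line at an FPKM of 1. Dcn and Bgn lie close together in the 2 libraries, while Fmod, Ogn and Aspn lie further left in Postn-DTR. Kera is listed at 0 in Postn-DTR and is drawn at the axis edge.

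Of the members, 3 were at least 2-fold lower in Postn-DTR. Aspn (ENSMUSG00000021388, chromosome 13, 49544443 to 49567565, plus strand) encodes asporin, which lacks a GAG chain and binds collagen and TGF-beta. The level was 7.82 FPKM in WT against 2.14 in Postn-DTR, 3.65-fold lower, and the change was -1.49. More negative changes were found in 1.26% of genes compared. It rested on about 385 and 110 reads, and counting error alone gave a 95% interval of 2.92-fold to 4.52-fold. Aspn thus had the largest change of the 9 members compared.

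Fmod and Ogn lay close to the 2-fold limit. Fmod (ENSMUSG00000041559, chromosome 1, 134037254 to 134048277, plus strand) encodes fibromodulin, a keratan sulfate proteoglycan that binds fibrillar collagen and takes part in its crosslinking. It was at 66.4 FPKM in WT against 31.8 in Postn-DTR, a level 2.09-fold lower and a change of -1.04. Ogn (ENSMUSG00000021390, chromosome 13, 49608046 to 49624501, plus strand) encodes osteoglycin, also called mimecan, a matrix protein of connective tissue. It was at 48.3 FPKM in WT against 23.2 in Postn-DTR, a level 2.08-fold lower and a change of -1.02. More negative changes were found for 2.85% of genes compared in the case of Fmod and for 2.94% in the case of Ogn. The counting intervals, 1.98-fold to 2.19-fold for Fmod and 1.94-fold to 2.21-fold for Ogn, include 2-fold, so these genes could fall on either side of the limit from counting alone. The intervals cover counting error only, not differences between animals, and the reads behind them are estimates. Of the 9 members compared 3 (33.3%) were lower and 0 higher, against 3.12% and 3.88% of all genes compared. The members were chosen with earlier results of these data known, so these shares only describe the list. With a pseudocount of 5 in place of 1 the number of lower members was 0 (1.28% of all genes), with changes of -0.96 for Fmod, -0.92 for Ogn and -0.84 for Aspn, and at a limit of 3-fold it was also 0 (1.17%).

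Under the 4 other scalings Aspn, Fmod and Ogn were each at least 2-fold lower, and no other member was. The share of all genes that were lower was then 3.31% with changes centred on their median, 3.76% with equal 75th percentiles, 5.68% with equal totals and 5.99% with equal totals without acinar genes. The 3 genes were also the lower ones with a pseudocount of 0.1 (4.90% of all genes), with no minimum (1.73%) and at a limit of 1.5-fold (8.84%). With a minimum mean FPKM of 10, which Aspn does not reach, Fmod and Ogn were the lower ones of 7 members compared (2.40% of all genes).

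The remaining class II members with sizeable levels were lower by less than 2-fold. Lum (ENSMUSG00000036446, chromosome 10, 97565128 to 97572703, plus strand) encodes lumican, a keratan sulfate proteoglycan that regulates collagen fibrils in cornea and skin. It was at 48.2 FPKM in WT against 35.1 in Postn-DTR, and the change was -0.45. Prelp (ENSMUSG00000041577, chromosome 1, 133910304 to 133921414, minus strand) encodes a protein that links collagen to heparan sulfate proteoglycans, and was at 105 FPKM in WT against 85.8 in Postn-DTR, with a change of -0.28. Both changes stayed negative under the 4 other scalings, reaching -0.77 for Lum and -0.61 for Prelp. Among the compared genes 13.2% had a more negative change than Lum and 22.0% than Prelp, so these members lay within the bulk of all genes.

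The change was positive for Podn and Omd. Podn (ENSMUSG00000028600, chromosome 4, 108014791 to 108096445, minus strand) encodes podocan, a collagen-binding member found in vessel walls and kidney. It was at 41.4 FPKM in WT against 51.8 in Postn-DTR, 1.25-fold higher, and its change of 0.32 became -0.012 at equal totals without acinar genes. This annotated span overlaps that of Scp2 on the same strand, 108043839 to 108144998, which was at 158 and 152. The RefSeq promoter windows of Podn, 108031905 to 108032204 and 108030937 to 108031236, lie outside Scp2, so transcripts from those starts do not reach it. Whether the counting used the longer span, and so could split reads between the genes, is not known. Omd (ENSMUSG00000048368, chromosome 13, 49582462 to 49592822, plus strand) encodes osteomodulin, a keratan sulfate proteoglycan known from bone. Its level was low, at 2.38 FPKM in WT against 3.19 in Postn-DTR, or about 113 and 157 reads, and the ratio of 1.34 had a counting interval of 1.05 to 1.73. Its change of 0.31 stayed positive under the 4 other scalings, down to 0.063.

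Kera (ENSMUSG00000019932, chromosome 10, 97606879 to 97613692, plus strand), which encodes the corneal proteoglycan keratocan, was the only member under the expression minimum. It was at 0.0245 FPKM in WT, about 1 read, and was listed at 0 in Postn-DTR. Both values are under a floor of 3 reads, so no fold is given, and a difference was not detectable at this depth.

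**Figure D2:**
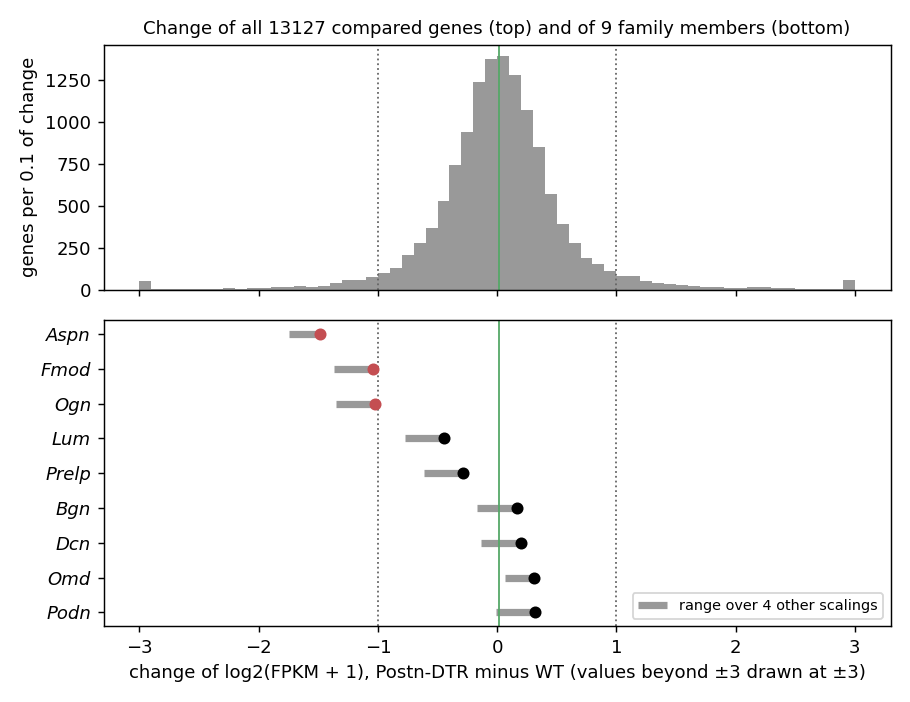
Difference in log2(FPKM + 1) between Postn-DTR and WT (negative, lower in Postn-DTR), as a histogram of the 13127 genes compared (top) and for the 9 SLRP members compared (bottom), with the green line at the median of all genes and dotted lines at 2-fold. Red points mark Aspn, Fmod and Ogn, at or beyond 2-fold lower; grey bars span the 4 other scalings and cross 0 for Bgn, Dcn and Podn.

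The order of the levels was also different between the libraries. From the highest FPKM down it was Dcn, Bgn, Prelp, Fmod, Ogn, Lum, Podn, Aspn, Omd and Kera in WT. In Postn-DTR it was Dcn, Bgn, Prelp, Podn, Lum, Fmod, Ogn, Omd, Aspn and Kera. The first 3 places were therefore shared, Fmod went from place 4 to place 6, and Podn went from place 7 to place 4. Ogn and Lum were at almost the same level in WT, 48.3 and 48.2, but at 23.2 and 35.1 in Postn-DTR. Ratios within a library are free of scaling, and those given here and further on were chosen after the values were seen. The FPKM of Dcn was 38.9 times that of Lum in WT and 61.3 times in Postn-DTR, and 239.7 and 1004 times that of Aspn. The ratio of Bgn to Fmod was 7.02 in WT and 16.4 in Postn-DTR, and that of Ogn to Omd 20.3 and 7.28.

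Summed over the 10 genes, the FPKM was 2660 in WT and 2908 in Postn-DTR, which was 0.491% and 0.433% of all FPKM. The sum reflects Dcn and Bgn. Without them the other 8 members reached 319 in WT against 233 in Postn-DTR, 1.37-fold lower. The median change of the 9 members compared was -0.28, beside 0.02 for all genes, with 5 members negative and 4 positive. At equal totals without acinar genes the members' median was -0.61, beside -0.28 for all genes, and 8 of the 9 were negative. With a median below 0, most genes compared were negative under this scaling as well. Dcn (-0.14), Bgn (-0.17) and Podn (-0.012) turned negative but lay above the median of all genes. The lower members did not come from a single class, since Aspn is of class I, Fmod of class II and Ogn of class III.

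All members but Bgn and Podn lie in 3 clusters of the genome. On chromosome 13, Ecm2, Aspn, Omd and Ogn follow each other on the plus strand with gaps of 11.7, 14.9 and 15.2 kb, and all of them lie inside the span of Cenpp on the opposite strand. Ecm2, which encodes a related matrix protein with leucine-rich repeats, was at 8.03 FPKM in WT against 2.95 in Postn-DTR, 2.73-fold lower with a change of -1.19. Of these 4 neighbours Ecm2, Aspn and Ogn were thus at least 2-fold lower, beside 3.12% of all genes compared. Aspn and Ogn were already counted among the lower members. Omd, between them, was at 2.38 and 3.19. Cenpp had a mean FPKM just under the minimum, at 1.36 and 0.633. Whether strand was used in counting is not known, so reads of Cenpp and of the 4 genes inside it may not be fully separate. The flanking genes Ippk (3.97 and 4.83) and Nol8 (5.07 and 5.96) stayed within 2-fold.

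On chromosome 10, Dcn, Lum, Kera and Epyc share the plus strand. Dcn was among the most abundant transcripts, Lum lay well below it, and Kera and Epyc, which encodes the cartilage member epiphycan, were almost silent. Epyc was at 0.0846 FPKM in WT against 0.0273 in Postn-DTR. On chromosome 1, Optc and Prelp lie 2.30 kb apart on the minus strand and Fmod lies 116 kb further on the plus strand. Optc, which encodes opticin of the eye, was under the minimum at 0.741 and 0.319. Fmod was at least 2-fold lower there while Prelp was not, and the next gene, Btg2, an anti-proliferative immediate early gene, was at 29.7 and 52.5, within 2-fold. Bgn and Podn stand alone.

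**Figure D3:**
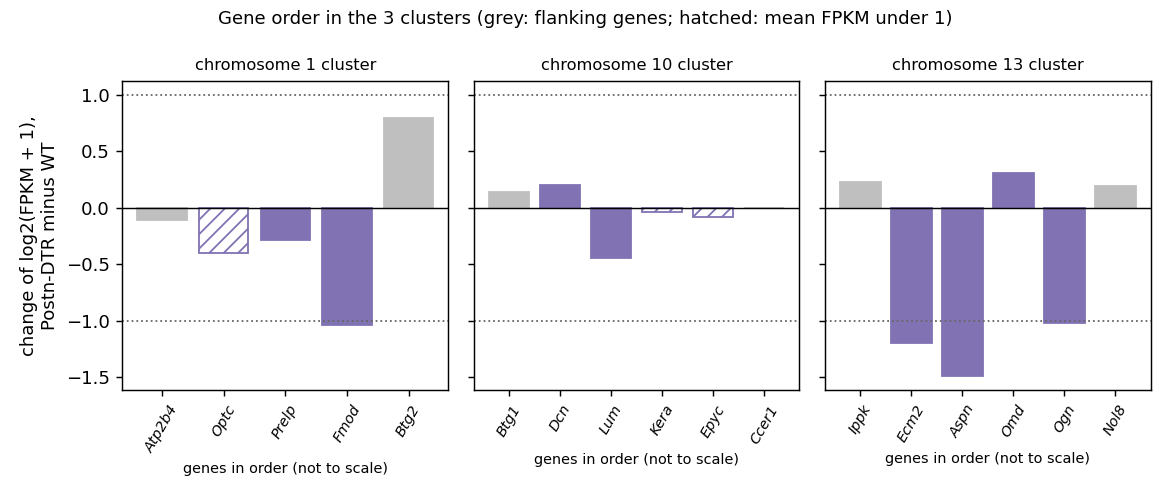
Difference in log2(FPKM + 1) between Postn-DTR and WT (negative, lower in Postn-DTR), for the genes of the 3 SLRP clusters in their genomic order, not to scale, with purple bars for leucine-rich proteoglycan genes, grey bars for the nearest flanking genes and hatched bars for genes with a mean FPKM under 1. In the chromosome 13 cluster Ecm2, Aspn and Ogn reach 2-fold lower, and Omd between them is positive.

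Other members of the wider leucine-rich proteoglycan group were few. Of 8 listed, 4 were compared, with 1 lower (Ecm2) and 1 higher, beside 3.12% lower and 3.88% higher of all genes compared. The higher gene was Tsku, which encodes tsukushi, a secreted protein made by liver and fat among other tissues, at 5.15 FPKM in WT against 15.6 in Postn-DTR, 3.04-fold higher. Podnl1, a relative of Podn, was at 2.88 and 1.19, a change of -0.82.

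The enzymes that build the GAG chains mostly stayed within 2-fold. Of 21 listed genes of chondroitin and dermatan sulfate assembly 18 were compared, with 1 lower, 1 higher and a median change of -0.13. Each count was 5.56% of the list, near the 3.12% lower and 3.88% higher of all genes compared. The lower gene was Chst3, a chondroitin 6-O-sulfotransferase, at 6.98 in WT and 2.67 in Postn-DTR, and the higher was Chst11, a chondroitin 4-O-sulfotransferase, at 3.60 and 8.83. The Chst11 change of 1.10 became 0.81 at equal totals without acinar genes, under 2-fold. Chst15, which adds a further sulfate to chondroitin, was at 18.1 and 13.3, within 2-fold. For keratan sulfate, the chain of Lum and Fmod, 7 of 8 genes were compared and 1 was lower. This was Chst1, the keratan sulfate galactose 6-O-sulfotransferase, at 41.7 in WT and 19.2 in Postn-DTR, 2.17-fold lower with a change of -1.08.

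Collagens and other fibril partners of SLRPs were compared beside them. Of 16 genes 3 (18.75%) were lower and 1 (6.25%) higher, beside 3.12% and 3.88% of all genes compared. Their median change was -0.50 and 12 were negative. Col5a3, a minor fibrillar collagen chain, was at 34.5 FPKM in WT against 7.46 in Postn-DTR, 4.62-fold lower. Dpt, which encodes dermatopontin, a protein that binds decorin and collagen, was at 237 and 67.3, 3.52-fold lower, and Col6a3, a chain of the collagen VI filaments that bind decorin and biglycan, at 46.9 and 20.9, 2.24-fold lower. Thbs1, a secreted matricellular protein, was at 21.8 and 189.6, 8.70-fold higher. Among the major fibrillar chains Col1a1 was at 422 and 313, Col1a2 at 407 and 357, and Col3a1 at 1264 and 699. Dcn relative to these chains was therefore higher in Postn-DTR, with a ratio of Dcn to Col1a1 of 4.44 in WT and 6.88 in Postn-DTR and of Dcn to Col3a1 of 1.48 and 3.08. Lum kept nearly the same ratio to Col1a1, 0.114 and 0.112, while that of Fmod was 0.157 and 0.102 and that of Bgn 1.10 and 1.67.

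Ligands and receptors bound by SLRPs showed 0 lower and 2 (10%) higher of 20 compared, beside 3.12% and 3.88% of all genes compared. Their median change of 0.17 became -0.12 at equal totals without acinar genes and -0.10 at equal totals with all genes kept. The higher genes were Lox, the collagen crosslinking enzyme lysyl oxidase, at 20.7 and 53.9, and Lrp1, an endocytic receptor for decorin, at 87.9 and 187. The Lrp1 change of 1.08 became 0.75 at equal totals without acinar genes, under 2-fold. Tgfb1, whose product is bound by Dcn, Bgn, Fmod and Aspn, was at 49.6 and 44.2. Tlr2 was at 12.4 and 23.5 and Tlr4 at 5.75 and 8.37. Of 12 processing and degrading enzymes compared, 1 (8.33%) was lower and 2 (16.7%) were higher. Pcolce, the enhancer of procollagen C-proteinase, was at 232 and 98.7, 2.35-fold lower, while Bmp1, the proteinase itself, which also trims the biglycan and osteoglycin precursors, was at 63.1 and 54.7. The higher genes were Mmp12, a macrophage metalloproteinase, at 1.98 and 9.71, and Adamts4, an aggrecanase, at 3.57 and 8.44. The Adamts4 change of 1.05 became 0.76 at equal totals without acinar genes, under 2-fold.

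**Figure D4:**
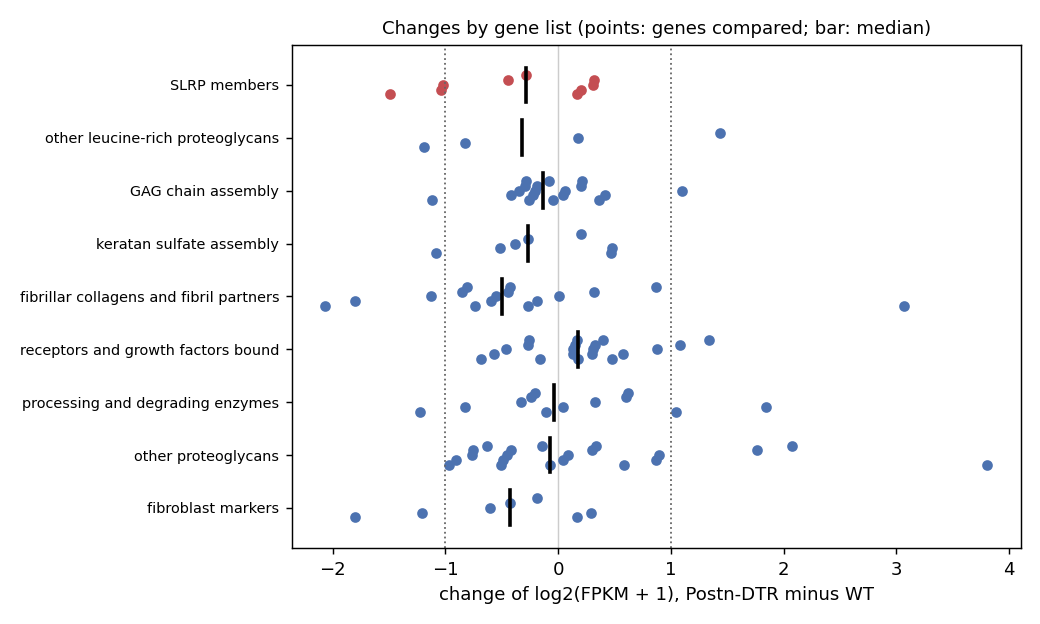
Difference in log2(FPKM + 1) between Postn-DTR and WT (negative, lower in Postn-DTR), for the genes compared in 9 lists, with 1 point per gene, a black bar at the list's median and dotted lines at 2-fold. The SLRP members (red) range from -1.49 to 0.32 around a median of -0.28, and the collagen and fibril partner list has a median of -0.50.

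Markers of cell types that could supply SLRP transcripts moved apart. In bulk tissue, fewer cells of a type cannot be told apart from less RNA per cell. Of 7 fibroblast markers 2 (28.6%) were lower, Dpt and Pdgfrb (41.3 and 17.3), beside 3.12% of all genes compared. The median change was -0.43, the value of Col1a1, and the summed FPKM was 1235 in WT and 877 in Postn-DTR. Dpt, Col1a1 and Col1a2 are also in the fibril partner list above, so these lists are not separate evidence. Pdpn, another of these markers, was at 46.6 and 57.1. Pdgfra, the receptor that marks omental fibroblasts, was at 26.0 and 29.2, and the ratio of Dcn to Pdgfra was 72.2 and 73.6. The ratio of Ogn to Pdgfra was 1.86 and 0.794, and that of Aspn to Pdgfra 0.301 and 0.0733. Relative to Pdgfra, Dcn was thus at nearly the same level in both libraries, while Ogn and Aspn were lower in Postn-DTR. Pdgfra was among the 2 fibroblast markers with a positive change, while 5 were negative. Pdgfrb and Dpt were themselves lower in Postn-DTR, so this comparison holds for Pdgfra only and depends on the marker chosen.

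Among 6 P1 markers 1 (16.7%) was lower and 1 (16.7%) higher, beside 3.12% and 3.88% of all genes compared. Postn, the gene that carries the receptor, was at 58.3 FPKM in WT against 16.2 in Postn-DTR, 3.61-fold lower, in which fewer Postn-expressing cells and the interrupted copy cannot be told apart. The ratio of Aspn to Postn was 0.134 in WT and 0.133 in Postn-DTR, a pair chosen after the values were seen. The interrupted copy also enters the Postn level, so this ratio does not measure Aspn per Postn-expressing cell. The Aspn fold itself had a counting interval of 2.92-fold to 4.52-fold. Aldh1a2 was at 85.5 and 63.3, and Ptx3 at 1.40 and 6.30. Of 5 smooth muscle and pericyte markers 1 was lower, Rgs5, a pericyte gene, at 30.6 and 2.56, 12.0-fold lower, and their sum was 233 and 176.

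The sum of macrophage markers was 410.3 FPKM in WT against 1053 in Postn-DTR, with 3 of 5 higher (Adgre1, Cd68 and Itgam). That of adipocyte markers was 2811 against 2105, with 1 of 6 lower (Pparg). Shares over all genes compared were 3.88% higher and 3.12% lower. For the 6 mesothelial markers the sum was 507 and 549, with 1 of them lower (Lrrn4, 62.7 and 29.2). Their median change of 0.30 became -0.026 at equal totals without acinar genes and -0.00087 at equal totals with all genes kept. Of the others, Upk1b and Msln were 1.91-fold and 1.83-fold higher as deposited. The 4 endothelial markers summed to 201 and 183, with 0 past 2-fold. Pancreatic acinar markers were at 9414 in WT and 17.7 in Postn-DTR, with 10 of 10 lower, so the WT library held pancreatic transcripts that were nearly absent from the other. The part of these differences in the SLRP values was not tested. Markers of bone and cartilage, where Omd, Ogn, Fmod and Epyc are known to be abundant, were at low levels. None of 5 bone and cartilage markers passed the minimum, and their sum was 0.423 in WT and 0.799 in Postn-DTR. Ibsp was listed at 0 in both, Acan was at 0.0180 and 0.0174, and Comp, the highest, was at 0.405 and 0.634. Whether such tissue added to the SLRP values was not tested.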

How the data were processed

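RNA from whole omentum was extracted with a miRNeasy kit and made into stranded TruSeq mRNA libraries, per the labels. The authors deposited FPKM, with 1 value per gene symbol and library. Their processing notes name the mm10 build, TopHat2 2.1.1, Bowtie2 2.2.8, SAMtools 0.1.18 and Cuffdiff 2.2.1. The annotation, and whether counting used strand, were not given in the sources used here. GENCODE M21 (GRCm38, the same build as mm10) gave positions and transcript lengths for 23310 symbols (95.7%), and RefSeq promoter windows were found for 8 of the 10 genes.

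The members and gene lists were chosen with earlier results of these data known. All members were named, with the up to 4 genes of largest change per list, genes whose role is needed beside a member, and the flanking genes of each cluster; Cenpp and Scp2 were added for their overlap. Genes averaging 1 FPKM or more were compared on log2(FPKM + 1), without a test, since each genotype had 1 library. The calculation was checked on simulated data. For depth, 174 of 723 genes under 0.1 FPKM in both libraries shared a ratio of 0.967, and among genes with a single annotated transcript 75.7% of low values in WT and 74.0% in Postn-DTR lay within 0.1 of a whole read. Read numbers use the longest principal transcript and are approximate, and the floor was 3 reads. Counting intervals are exact binomial (95%). Alternatives were pseudocounts of 0.1 and 5, no minimum or a mean of 10, 4 scalings, and limits of 1.5-fold and 3-fold. Python 3.11.15, pandas 2.3.3 and scipy 1.17.1 were used.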

Additional observations from a re-analysis of the deposited data

How the results depend on the processing

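The number of lower members, 3 of 9, was 0 with a pseudocount of 5 (1.28% of all genes) and 0 at 3-fold (1.17%). Under the other 8 alternatives it was 3, except 2 with a mean FPKM of at least 10, which leaves out Aspn. Over all genes, 410 were lower as reported, 643 at a pseudocount of 0.1 and 168 at 5, 173 when the mean had to reach 10, 746 for equal totals, 786 for equal totals lacking acinar genes, and 1160 and 153 for limits of 1.5-fold and 3-fold. Higher genes numbered 509 as reported, 287 at a pseudocount of 5, 303 when the mean had to reach 10, 314 and 308 for the equal totals, and 1294 and 199 for the 2 limits. The 2 limits act on a count by construction. The members' median of -0.28 became -0.16 with no minimum, which adds Kera, and -0.59 and -0.61 at the equal totals. Dcn (-0.11 and -0.14) and Bgn (-0.15 and -0.17) were negative at these totals, and Podn (-0.012) without acinar genes. No paired analysis was possible because each genotype has 1 library. Leaving out a replicate was not possible for the same reason.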

Other observations

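Proteoglycans outside the leucine-rich family were compared as a list of 26 genes, of which 21 passed the minimum. On the log2(FPKM + 1) scale 0 were at least 2-fold lower (beside 3.12% of all genes) and 3 at least 2-fold higher (beside 3.88%), with 11 of 21 changes negative and a median change of -0.07. Prg4, which encodes the lubricating proteoglycan lubricin, was at 38.0 FPKM in WT against 545 in Postn-DTR, 14.3-fold higher. Spock2, which encodes a secreted heparan sulfate proteoglycan, was at 8.86 and 40.5, 4.56-fold higher, and Srgn, which encodes serglycin of leukocyte granules, at 135 and 462, 3.42-fold higher. Next by size of change were Gpc2, a glypican, at 3.03 and 1.06, and Cspg4, which encodes the pericyte proteoglycan NG2, at 7.60 and 3.60. Their levels were 2.86-fold and 2.11-fold lower in Postn-DTR without the added 1, but their changes of -0.97 and -0.90 fell short of the limit. Prg4 was thus at a lower level than Fmod in WT and at a level close to that of Bgn in Postn-DTR. The macrophage markers were higher in the same library, and their part in these values was not tested.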
